A study of Rattus norvegicus with 48 samples.

Results

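The transcripts described here are those of 10 rat genes, 6 that encode A-kinase anchoring proteins (Akap12, Akap1, Akap8, Akap9, Akap11 and Akap13) and 4 that encode adenylyl cyclases (Adcy3, Adcy4, Adcy6 and Adcy7), among 13050 genes with reads in every sample. They were measured in cerebral endothelial cells (CECs) sorted from pooled cortexes of male Wistar-Han rats with free access to food (AL rats) or after a fast of 1 day (F1), 2 days (F2) or 3 days (F3). Each group held 3 samples, named i, j and k, and each sample was sequenced as 4 technical replicates, which were summed. The cells came from whole animals without any transgene, and no treatment other than the fast set the groups apart. Per the paper, rats were anesthetized with diazepam and ketamine and perfused with a buffer holding heparin before the cortex was taken. The set was assembled around Akap12, a gene selected on its measured fold over AL, since its transcript more than doubled in fasted rats, so that its values against AL are a description without a test. The other 9 genes were chosen for their place in the same pathway, and all 10 passed the filter on low counts.

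Adenylyl cyclases sit in the plasma membrane, where they make cyclic AMP (cAMP) from ATP when receptors coupled to the stimulatory G protein Gs are occupied. The main receiver of cAMP is protein kinase A (PKA), and A-kinase anchoring proteins are scaffolds that hold PKA, together with other kinases, phosphatases and phosphodiesterases, at a given place in the cell. In endothelium cAMP is known for tightening cell junctions, and Akap12, also called gravin or SSeCKS, is known as a scaffold beneath the plasma membrane that takes part in the maturation of brain vessels.

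The sequences upstream of Akap12 and Adcy4 are shown because Akap12 is the gene the set was built around and Adcy4 was the only member that passed the test against AL. Both are the 250 bases before the start that RefSeq annotates in the GRCr8 build, on the strand of the gene, at chr1:43135265-43135514 on the plus strand for Akap12 and at chr15:33252027-33252276 on the minus strand for Adcy4. Capitals mark the GC box GGGCGG, the letters bound by Sp1 and its relatives, searched on both strands.
Akap12: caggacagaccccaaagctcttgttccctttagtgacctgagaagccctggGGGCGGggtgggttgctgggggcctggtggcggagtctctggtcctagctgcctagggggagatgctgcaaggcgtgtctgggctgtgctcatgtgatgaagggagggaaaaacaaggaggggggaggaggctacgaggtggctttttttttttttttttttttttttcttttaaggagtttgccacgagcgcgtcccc
Adcy4: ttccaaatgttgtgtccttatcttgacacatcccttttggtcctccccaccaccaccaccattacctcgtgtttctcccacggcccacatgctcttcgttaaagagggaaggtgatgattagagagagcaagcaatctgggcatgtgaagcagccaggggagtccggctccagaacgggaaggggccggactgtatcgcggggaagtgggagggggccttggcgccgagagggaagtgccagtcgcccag
The Akap12 sequence holds 1 GC box, which begins 199 bases before the start, and a run of 25 thymines nearer to the start. The Adcy4 sequence holds none. The table listed a start for 8 of the 10 members, without Adcy3 and Adcy6, and GGGCGG was found in 4 of the 8 (Akap12, Akap13, Akap8 and Akap9), against 30.5% of all 33469 promoters of this length. The cAMP response element TGACGTCA, the letters bound by CREB, was found in none of the 8 and in 1.59% of all promoters. Its first 5 letters, TGACG, which every full element also contains, were found in 18.2% of all promoters and among the members in Akap11 alone, with 3 matches.

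The samples held between 20718644 and 25960874 reads assigned to genes. The technical replicates of a sample differed by about as much as the counting of reads allows, with a chi-square of 1.00 to 1.02 per degree of freedom. For replicate d of F1 sample k the labels disagree on the length of the fast, and its counts, which lay with the other replicates of that sample, were kept in F1. The label of the cells was checked on the markers that could be named. Of the endothelial markers 5 of 12 had an identifier, and Pecam1 (CD31) lay between 31655 and 38792 normalized counts in every sample. The summed count of the 5 ranged from 499068 to 549489 in AL, from 606579 to 614673 in F1, from 597302 to 642391 in F2 and from 610832 to 650107 in F3 rats, most of it from the glucose transporter gene Slc2a1, which was higher in every fasted sample (355198 to 416026) than in the AL samples (257320 to 309123). The organic anion transporter gene Slco1c1 lay between 109564 and 110764 in AL, between 87125 and 94436 in F1, between 105175 and 106532 in F2 and between 79829 and 96202 in F3 samples. The part of these differences in the members' values was not tested. Of the markers of mural cells, the pericytes and smooth muscle cells of the vessel wall, 4 of 13 had one (Abcc9, Anpep, Acta2 and Atp13a5), and none of them was at 0. Their summed normalized count ranged from 2701 to 6512 in AL, from 3020 to 3401 in F1, from 3662 to 6871 in F2 and from 2483 to 6484 in F3 rats. Of the microglial markers 4 of 9 were measured, with a sum of 38.1 to 113 in the 12 samples. The astrocyte marker Aldoc, 1 of 7, lay between 1825 and 2155 in AL and between 1702 and 2277 in F1 samples. It lay between 1530 and 2239 in F2 and between 1545 and 1588 in F3 samples, the latter below all AL and F1 samples. A sum of the early response genes Atf3 and Btg2, which rise when tissue is dissociated, ranged from 34984 to 72314 in AL, from 44097 to 54670 in F1, from 51984 to 68534 in F2 and from 43815 to 50340 in F3 rats. Most of this sum came from Btg2. Atf3 alone had 14970, 9192 and 4838 normalized counts in AL and 3964, 4138 and 4664 in F3 samples. The F3 samples thus lay below the AL samples, and 35.6% of all genes tested had no overlap between these groups. Atf3 lay between 3726 and 6438 in F1 and between 7148 and 11622 in F2 samples. The part of these marker differences in the members' values was not tested either. Neurons, oligodendrocytes and fibroblasts could not be checked, because none of their markers had an identifier here. In sorted cells pooled in this way, fewer cells of a type and less RNA per cell cannot be told apart.

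F2 sample j stood apart from the other samples over all genes and not only in the anchoring genes. Its chi-square per degree of freedom was 48.8 against F2 sample i and 51.5 against F2 sample k. Other pairs of samples of 1 group had 9.75 to 24.8. F2 sample j was the lowest of the 12 samples for 4 of the 10 members (Akap1, Akap9, Akap11 and Akap13) and for 8 of 14 anchoring genes, or 57.1%, whereas 20.9% of all genes tested were lowest in this sample and 20.1% were highest in it. Of the 8 anchoring genes, Akap5 and Akap6 had only 8 and 6 reads in F2 sample j. For this reason the F2 values are also given without it where they move.

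The question asked of the members was whether the anchors and cyclases around Akap12 changed with fasting as well. Akap12 more than doubled on each day and was the only member to reach a doubling. Of the other 9 members none passed the test at day 1 or day 2, and Adcy4 alone passed it at day 3, where it fell by 19.4%. Of all genes tested 6.56%, 0.858% and 12% passed on the 3 days. Between fasted groups none of the 10 members passed, where at most 5.94% of all genes tested did. Differences are given as log2 fold changes (LFC) with their standard errors, and p-values come from the quasi-likelihood test of edgeR, adjusted after Benjamini and Hochberg over the 13050 genes, with a threshold of 0.05. Levels are normalized counts, which are not scaled by the length of a gene and are therefore compared between samples of 1 gene and not between genes.

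**Figure D1:**
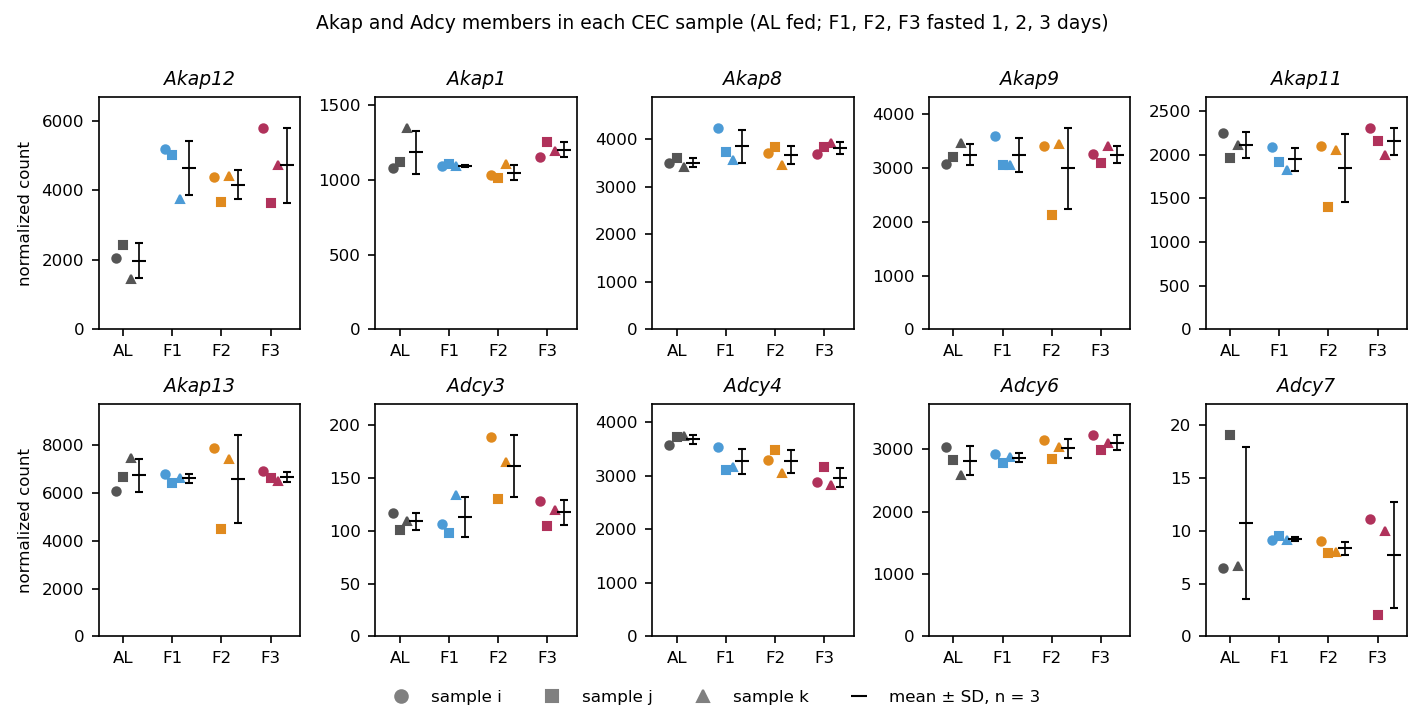
Normalized count of each of the 10 members (vertical axes, each from 0) in the 12 CEC samples by group (horizontal axes), with circles for sample i, squares for j and triangles for k, and the mean ± SD of the 3 samples as black bars. For Akap12 the 9 fasted samples lie between 3621 and 5793, all above the AL samples at 1437 to 2434, and F2 sample j lies lowest for Akap9, Akap11 and Akap13.

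Akap12 (ENSRNOG00000019549) had 2042, 2434 and 1437 normalized counts in AL samples i, j and k. It had 5177, 5025 and 3759 in F1 samples and 4393, 3676 and 4412 in F2 samples. In F3 samples it had 5793, 3621 and 4734. Every fasted sample thus lay above every AL sample. Of all genes tested 28.7%, 15.5% and 35.6% had no overlap with AL at day 1, 2 and 3, in either direction. The lowest fasted sample for Akap12 was F3 j. The means were 1971 ± 502 in AL (SD, n = 3), 4653 ± 779 in F1, 4160 ± 420 in F2 and 4716 ± 1086 in F3 rats. The LFC was 1.24 (standard error 0.21) at day 1, 1.08 (0.21) at day 2 and 1.26 (0.21) at day 3, or 2.36-fold, 2.11-fold and 2.39-fold. The 95% intervals on the log2 scale were 0.78 to 1.69, 0.62 to 1.53 and 0.80 to 1.71, and each reached below a doubling. They do not allow for the choice of Akap12 by these same folds and are no test of a rise. A fold used for such a choice can also come out too high. The 2.11-fold of day 2 was the member value just inside a doubling. The next member value was that of Adcy3 at day 2, 1.48-fold. A LFC of at least 1 over AL on all 3 days was found for 57 of the 13050 genes, or 0.437%. Leaving out each sample in turn moved the LFC of Akap12 between 1.05 and 1.41 at day 1, between 0.90 and 1.25 at day 2 and between 1.07 and 1.43 at day 3.

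The choice of Akap12 did not use the differences between fasted days, which were tested. They were small beside the spread of the samples. F2 against F1 gave a LFC of -0.16 (standard error 0.20, 95% interval -0.61 to 0.28, edgeR adjusted p = 0.738). F3 against F2 gave 0.18 (0.20, -0.26 to 0.63, adjusted p = 0.650) and F3 against F1 gave 0.02 (0.20, -0.43 to 0.46, adjusted p = 0.996). The intervals leave out a doubling between fasted days and leave room for smaller differences.

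The markers of mural cells differed between samples of a group and were therefore set beside Akap12. Akap12 and the summed mural markers put the samples in the same order within F2 and within F3 rats and in another order within AL and F1 rats. On the log2 scale, once the group means were taken off, Pearson's r between Akap12 and the summed mural markers was 0.67 over the 12 samples, and it was 0.21 with the group means left in. Akap12 did not have the highest r of the members. With the group means taken off, r ranged from -0.66 for Adcy4 to 0.88 for Adcy6. With the group means left in, it ranged from -0.44 for Akap1 to 0.72 for Adcy6. The members and the mural markers were measured in the same libraries. The mural sums ranged from 2701 to 6512 in AL and from 3020 to 3401 in F1 rats. Only 4 of 13 mural markers were measured, and the part of mural cells in the values of Akap12 was not tested. With the mural markers as a covariate the LFC of Akap12 was 1.35 (standard error 0.19) in F1, 0.89 (0.20) in F2 and 1.21 (0.18) in F3 rats. The value of F2 then lay under a doubling.

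**Figure D2:**
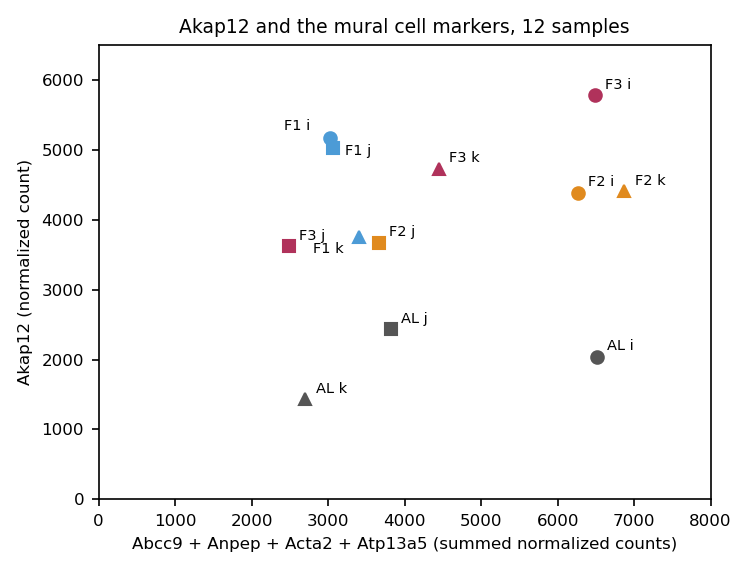
Akap12 (vertical axis, normalized count) against the summed normalized counts of the mural cell markers Abcc9, Anpep, Acta2 and Atp13a5 (horizontal axis) in each of the 12 samples, with both axes from 0. The AL samples span 2701 to 6512 on the horizontal axis and lie below all fasted samples on the vertical axis.

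Likeness to the pattern of Akap12 was taken as Pearson's r of log2 normalized counts over the 12 samples. It was searched only among the 1263 genes with a symbol and a mean of at least 100 normalized counts. Symbols were at hand mainly for names early in the alphabet and for transporter genes. Most of the 9459 genes with such a mean were therefore not compared, and the ranking holds only within those searched. The highest r was that of Agpat2 (0.954), an acyltransferase that makes phosphatidic acid, followed by Alas1 (0.933), the first enzyme of heme synthesis, and the galactosyltransferase B4galt4 (0.928). Next came Bcl2l11 (0.915), which encodes the cell death protein Bim, Baiap2 (0.909), which links membranes to actin, and the glucose transporter gene Slc2a1 (0.907). Ankrd13a (0.904), the adhesion receptor gene Adgrg1 (0.898), the mitochondrial carrier gene Slc25a45 (0.887) and B3galt5 (0.886) completed the first 10. The samples share their libraries and the step from AL to fasted rats, and once the group means were taken off, the r of these 10 genes ranged from 0.40 for Slc2a1 to 0.82 for Agpat2. Among the members with at least 100 counts, r with Akap12 ranged from -0.74 for Adcy4 to 0.61 for Adcy6.

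Among the 9 other members, 0 were called at day 1, when 6.56% of all genes tested were, 0 at day 2, against 0.858%, and 1 at day 3, against 12% in either direction and 5.77% with lower expression. A single call of 9 at day 3 is thus close to the share over all genes. At an unadjusted p under 0.05 there were 1, 2 and 1 members, where 20.6%, 12.8% and 26.0% of all genes tested passed, and DESeq2 called 0, 0 and 1 members and 1241, 359 and 1879 of all genes. The median LFC of the 9 was -0.03, -0.12 and 0.02 on the 3 days, beside medians of -0.0043, -0.0085 and -0.0053 over all genes tested.

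**Figure D3:**
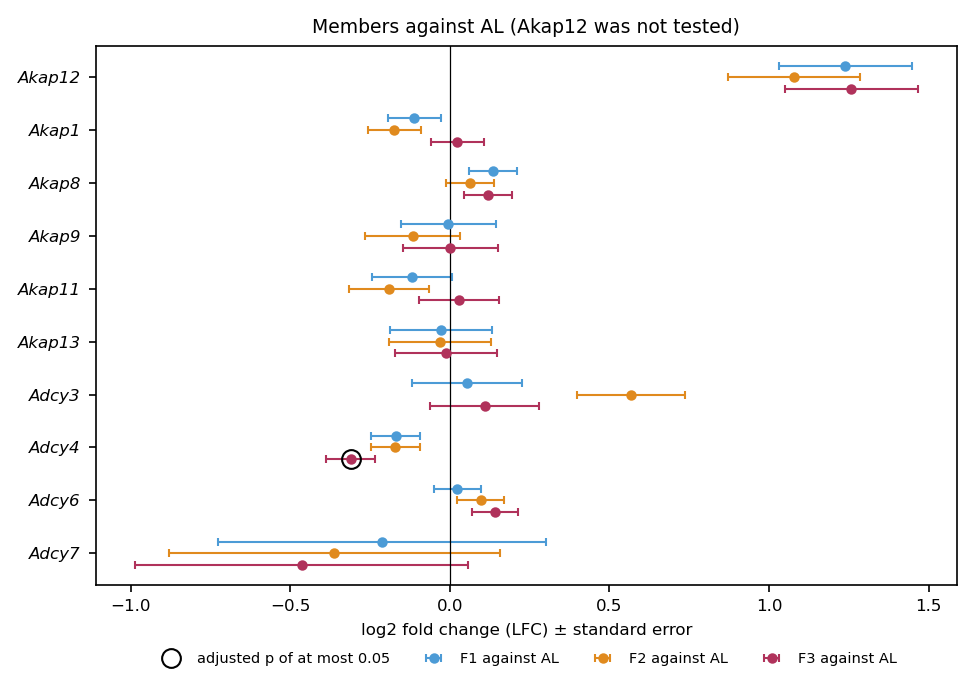
LFC against AL (horizontal axis, log2 scale) of the 10 members at day 1, 2 and 3 of fasting, with the standard error as bars and black rings around values with an adjusted p of at most 0.05. Akap12, which was not tested, lies between 1.08 and 1.26, Adcy4 at day 3 is the one ringed value at -0.31, and the bars of Adcy7 are the widest.

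Akap1, which anchors PKA to the outer membrane of mitochondria, lay between 1012 and 1348 normalized counts in the 12 samples. Its LFC against AL was -0.11 (standard error 0.08) at day 1, -0.17 (0.08) at day 2 and 0.02 (0.08) at day 3. All of the F3 samples, at 1155, 1253 and 1194, lay above the 3 F2 samples, at 1028, 1012 and 1103, and 26.8% of all genes tested had no overlap between these groups. That difference was a LFC of 0.20 (0.08) and did not pass the test (edgeR adjusted p = 0.182, unadjusted p = 0.0332).

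Akap8, a scaffold of the nucleus and of chromatin, had 3504, 3615 and 3415 normalized counts in AL samples and 3684, 3837 and 3934 in F3 samples. The F3 samples did not overlap with the AL samples, as was the case for 35.6% of all genes tested, and the LFC of 0.12 (standard error 0.08) did not pass the test (edgeR adjusted p = 0.352). At day 1 and day 2 its LFC was 0.13 (0.08) and 0.06 (0.08).

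Akap9, a large scaffold of the centrosome and the Golgi apparatus, had 3071, 3202 and 3452 normalized counts in AL samples. It had 3593, 3054 and 3047 in F1, 3414, 2118 and 3438 in F2 and 3256, 3080 and 3398 in F3 samples. F2 sample j was the lowest and the other 11 samples lay between 3047 and 3593. Its LFC against AL was -0.0044, -0.12 and 0.0015 (standard error 0.15 each), and without F2 sample j the value of day 2 was 0.08 (0.08, edgeR adjusted p = 0.705).

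Akap11, which binds PKA and the kinase GSK3, had 2254, 1964 and 2114 normalized counts in AL samples and 2095, 1406 and 2051 in F2 samples. F2 sample j was again below all others. The LFC of day 2 was -0.19 (standard error 0.13) with this sample and -0.03 (0.08) without it, and the LFC of days 1 and 3 was -0.12 (0.13) and 0.03 (0.13).

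Akap13, which is both an anchor and an activator of the GTPase RhoA, had 6084, 6674 and 7435 normalized counts in AL samples and 7870, 4469 and 7411 in F2 samples. The lowest sample of the group thus had 58.5% of the mean of the others. The LFC of day 2 was -0.03 (standard error 0.16) with F2 sample j and 0.18 (0.08, edgeR adjusted p = 0.320) without it. At day 1 and day 3 the LFC was -0.03 (0.16) and -0.01 (0.16).

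F2 sample j had 61.8% of the mean of F2 samples i and k for Akap9, 67.8% for Akap11 and 64.7% for Akap2. Over the 9459 genes with at least 100 counts this percentage had a median of 102, a 5th percentile of 61.8 and a 95th percentile of 133. Akap9 and Akap13 were thus near the lower end of all genes in this sample, whereas Akap17a, at 139%, lay above the upper end and Akap8l, at 128%, just under it. Akap12 was at 83.5% and Akap8 at 107%.

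**Figure D4:**
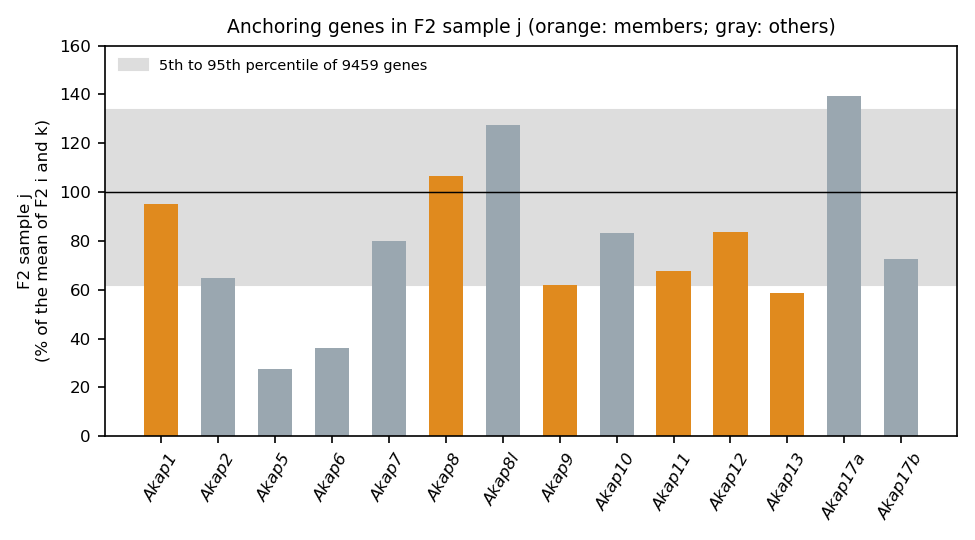
Normalized count of F2 sample j as a percentage of the mean of F2 samples i and k (vertical axis) for the 14 anchoring genes with an identifier (horizontal axis), with members in orange, other genes in gray and the range from the 5th to the 95th percentile of 9459 genes shaded. Akap13 at 58.5% lies under the shaded range and Akap17a at 139% above it, and Akap5 and Akap6, at 27.7% and 35.9%, rest on at most 33 reads in any sample.

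Of the cyclases, Adcy4, which answers to Gs and to the beta and gamma subunits of G proteins, gave the one call. It had 3583, 3723 and 3745 normalized counts in AL samples and 3548, 3114 and 3162 in F1 samples. It had 3295, 3477 and 3047 in F2 and 2895, 3177 and 2839 in F3 samples. All 9 fasted samples lay below the lowest AL sample, the closest of them F1 sample i. Such groups without overlap were found for 28.7% of all genes tested in F1, 15.5% in F2 and 35.6% in F3 rats against AL. Adcy4 fell at day 3 by 0.31 on the log2 scale (standard error 0.08, 95% interval -0.48 to -0.15, edgeR adjusted p = 0.0172). At day 1 and day 2 the LFC was -0.17 (0.08, adjusted p = 0.225) and -0.17 (0.08, adjusted p = 0.367). F3 against F2 gave -0.14 (0.08, adjusted p = 0.304), so that day 3 was not shown to differ from day 2. The call of day 3 was lost without AL sample k (adjusted p = 0.0564), without F3 sample i (0.0797) or without F3 sample k (0.0782), and the LFC was then -0.30, -0.29 and -0.28. It was kept with the mural markers as a covariate (LFC -0.30, adjusted p = 0.0206).

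Adcy3, a cyclase known from olfactory neurons and from primary cilia, had the largest LFC of the members after Akap12. It had 117, 100 and 109 normalized counts in AL and 107, 97.7 and 134 in F1 samples. It had 188, 130 and 165 in F2 and 128, 104 and 119 in F3 samples. The F2 samples all lay above the AL and F3 samples, with a narrow gap between F2 sample j at 130 and F3 sample i at 128, and F1 sample k, at 134, overlapped with them. Of all genes tested 15.5% had no overlap between F2 and AL and 26.8% had none between F3 and F2. The LFC of day 2 was 0.57 (standard error 0.17) and did not pass the test over all genes (edgeR adjusted p = 0.156, unadjusted p = 0.0047). F2 against F1 gave 0.51 (0.17, adjusted p = 0.136) and F3 against F2 gave -0.46 (0.17, adjusted p = 0.123). Within F2 rats the summed mural markers were likewise higher in samples i and k (6264 and 6871) than in j (3662), and with them as a covariate the LFC of day 2 was 0.40 (adjusted p = 0.379). Without F2 sample j it was 0.70 (adjusted p = 0.0578). At day 1 and day 3 the LFC was 0.05 (0.17) and 0.11 (0.17).

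Adcy6, a cyclase inhibited by calcium, lay between 2583 and 3231 normalized counts in the 12 samples, and its LFC was 0.02, 0.10 and 0.14 (standard error 0.07 each) on the 3 days, with an adjusted p of 0.248 at day 3 in edgeR's quasi-likelihood test. The 95% interval of day 3, from -0.02 to 0.30, leaves out a doubling. With the mural markers as a covariate the LFC of Adcy6 was 0.07, 0.02 and 0.13 on the 3 days.

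Adcy7, a cyclase known from blood and immune cells, had only 2 to 19 reads in a sample. AL sample j, with 19 reads, was the highest, and F3 sample j, with 2 reads, the lowest. The LFC was -0.21 (standard error 0.51), -0.36 (0.52) and -0.46 (0.52). The interval of day 3 ran from -1.59 to 0.66, so that the values leave room for any difference within this range.

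Between fasted groups 0 of 10 members were called for F2 against F1, when 1.43% of all genes tested were, 0 for F3 against F2, against 5.94%, and 0 for F3 against F1, against 0.0%. DESeq2 called 0 members in each. At an unadjusted p under 0.05 there were 1, 2 and 0 members (Adcy3, then Adcy3 and Akap1), where 17.3%, 22.0% and 4.44% of all genes tested passed. For F3 against F1 these were 579 genes, and DESeq2 called 24.

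The other genes of the pathway were taken from lists of anchors, cyclases, receptors and targets, of which 23 genes outside the 10 members had an identifier. At day 1, 1 of the 23 was called and was lower (Calcrl), where 6.56% of all genes tested were called. At day 2 none was called by edgeR's quasi-likelihood test or by DESeq2, with 2 at an unadjusted p under 0.05, beside 0.858% and 12.8% of all genes. At day 3, 2 were called and both were lower (Calcrl and Ccnd1), beside 12% of all genes. Between fasted groups Calcrl was called for F3 against F2, where 5.94% of all genes were, and none was called for F2 against F1 or for F3 against F1, with 4 and 2 at an unadjusted p under 0.05, beside 17.3% and 4.44% of all genes, and 0 by DESeq2 in both. The kinase itself, its inhibitors, the cAMP phosphodiesterases, the G proteins and the Epac and Rap1 genes were not analysed here, because none of them had an identifier that could be matched to a symbol.

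Calcrl, the receptor for adrenomedullin and calcitonin gene-related peptide, which signals through Gs, was called in 3 of the 6 comparisons. It had 3328, 2978 and 3170 normalized counts in AL samples and 2267, 2088 and 2492 in F1 samples. It had 2595, 2432 and 2936 in F2 and 1858, 1987 and 1779 in F3 samples. All fasted samples lay below all AL samples, and all F3 samples lay below all F1 and F2 samples. Of all genes tested 28.7%, 15.5% and 35.6% had no overlap with AL in F1, F2 and F3 rats. Between F3 and F1 13.0% had none, and between F3 and F2 26.8%. Calcrl fell by 0.47 on the log2 scale at day 1 (standard error 0.09, edgeR adjusted p = 0.00684) and by 0.75 at day 3 (0.09, adjusted p = 0.000179). At day 2 the LFC was -0.25 (0.09, adjusted p = 0.230). From F2 to F3 it fell by 29.4%, with a LFC of -0.50 (0.09, adjusted p = 0.00757).

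Of the 23 receptors coupled to Gs that were listed, 4 had an identifier. The adenosine receptor gene Adora2a lay between 1120 and 1651 in the 12 samples, with a LFC of -0.05, 0.01 and -0.02 (0.13 each), and Adora2b lay between 8.9 and 34.0. Neither was called in any of the 6 comparisons.

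Of the other anchors, Akap2, with 24066 to 38377 normalized counts, had a LFC of 0.03, 0.07 and 0.0073 (standard error 0.13 each). Akap8l, Akap17a and Akap10 had LFC between -0.09 and 0.23 on the 3 days. Akap7, which was picked out after its values had been seen, had 200 to 217 normalized counts in F3 samples. All of these lay below the AL samples at 250 to 284, where 35.6% of all genes tested had no overlap. Its LFC of -0.38 (0.12, edgeR adjusted p = 0.0647) did not pass. Of 13 anchoring genes other than Akap12, 5, 8 and 9 had a positive LFC on the 3 days and none was called. Of all genes tested 6.56%, 0.858% and 12% were called on these days, so that few calls among 13 genes were to be awaited at day 2. Akap12, which was chosen for its fold, was thus the one anchoring gene of 14 with an estimated LFC of 1 or more on any day. Akap5 and Akap6 had few reads and wide 95% intervals. At day 1 these ran from -1.59 to 0.57 for Akap5 and from -0.49 to 1.52 for Akap6, past a LFC of 1 in size.

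Of the other cyclases, Adcy9 lay between 500 and 779 normalized counts and had a LFC of -0.19, 0.01 and -0.24 (standard error 0.12 each). Adcy5 lay between 32.1 and 76.2, and Adcy10, the soluble cyclase, between 110 and 223. None was called in any of the 6 comparisons.

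Of the genes listed as partners of Akap12, the cyclin D1 gene Ccnd1 had 216, 174 and 192 normalized counts in AL and 121, 127 and 142 in F3 samples. The groups did not overlap, as for 35.6% of all genes tested, and Ccnd1 fell at day 3 by 0.58 on the log2 scale (standard error 0.15, edgeR adjusted p = 0.0218). This call was lost when AL sample i, AL sample k, F3 sample i or F3 sample j was left out, with adjusted p between 0.0549 and 0.0977. The calmodulin gene Calm3 lay between 19878 and 23236 and was not called. The galactosyltransferase gene B4galt1 had a LFC of 0.27, 0.08 and 0.38 (0.14 each), with an adjusted p of 0.117 at day 3. Downstream of PKA, Atf1, a factor of the CREB family, and Btg2 were measured, and neither was called.

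**Figure D5:**
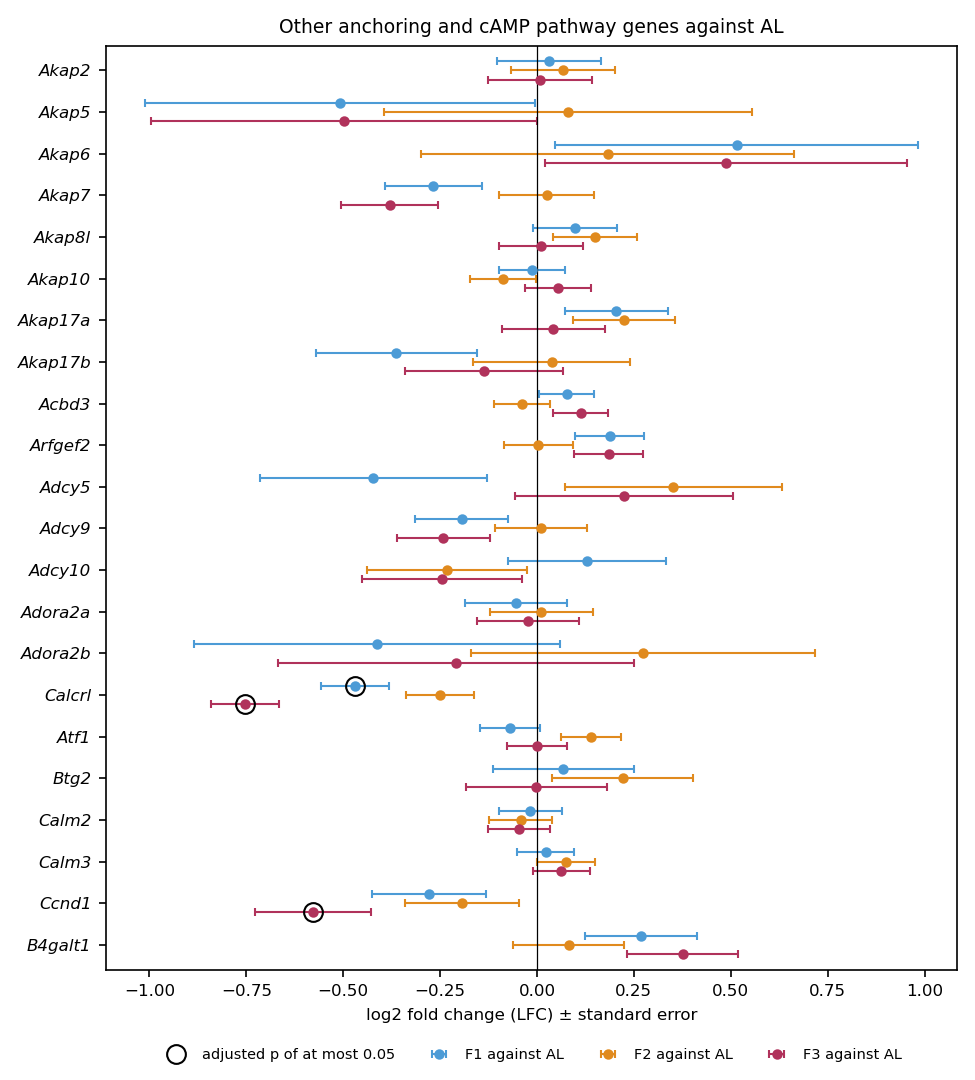
LFC against AL (horizontal axis, log2 scale) of 22 of the 23 other anchoring and cAMP pathway genes at day 1, 2 and 3 of fasting, with the standard error as bars and black rings around values with an adjusted p of at most 0.05. Rings stand at -0.47 and -0.75 for Calcrl and at -0.58 for Ccnd1, and the widest bars are those of Akap5, Akap6 and Adora2b.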

How the data were processed

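Polyadenylated RNA of sorted CECs was sequenced from strand-specific libraries. Per the labels, the authors used bcl2fastq 2.18.0.12, STAR, HTSeq 0.5.3 and the build Rnor_6.0, and the deposited values are raw read counts per gene without normalization. Whether counting used the strand is not given in the sources used here, so that overlapping genes cannot be told apart.

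Here the 4 technical replicates of each of the 12 samples were summed, and 13050 of 32624 features with at least 1 read in each sample were fitted with edgeR 4.0.16 in R 4.3.3 (TMM, quasi-likelihood with robust estimation, 1 model of 4 groups). Benjamini-Hochberg adjustment was over all of them. DESeq2 1.42.0 was an alternative. A normalized count is the count over the effective library size, times the mean effective library size. The test was tried on simulated data. Identifiers were paired with symbols by the supplementary tables, for 2043 of the features tested. The upstream sequences are from RefSeq (GRCr8).

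Named were all members, pathway genes called in any comparison and up to 4 further genes of each list with the highest mean. Also named were the 10 genes most like Akap12 among those that could be compared. The members and lists were chosen with earlier results of these data known. P-values measure the spread between samples of pooled rats. The letters i, j and k were not used to pair the samples in the main fit. The values of 1 pathway gene are not reported here.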

Additional observations from a re-analysis of the deposited data

Results flagged for a closer look

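The effect of fasting on Calcrl differed between F2 and F3 rats in the test of the difference itself. It had 2595, 2432 and 2936 normalized counts in F2 and 1858, 1987 and 1779 in F3 samples, and F3 against F2 gave a LFC of -0.50 (standard error 0.09, edgeR adjusted p = 0.00757). Over the 22 alternatives its LFC lay between -0.56 and -0.42, with adjusted p between 4.71e-05 and 0.0442.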

How the results depend on the processing

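The results were recomputed under 22 alternatives, 12 of which leave out 1 sample each, and 1235 values were counted as the same. For a tested LFC this means the same direction and side of the threshold. For counts of calls it allows a small change, such as 3 in place of 2. For Akap12 against AL it means the same direction and a shift smaller than the spread of the samples. Of the other values 10 moved, 37 changed sign, 6 gained a call and 7 lost one. Tried were DESeq2, its size factors within edgeR, total counts, all genes with any read, filterByExpr, only the samples of the groups compared, the letter as a block, F1 sample k without its replicate d and the mural markers as a covariate, and, added after seeing the data, edgeR without robust estimation. Another scaling moved the median LFC of all genes by at most 0.06. Members called at day 3 ranged from 0 to 1 with a sample left out (0 without AL k, F3 i or F3 k). Pathway genes called at day 3 ranged from 1 to 4 (1 without AL i, AL k, F3 i or F3 j, 4 without F2 j). For F3 against F2 they ranged from 1 to 2, with 2 without F2 j or by DESeq2, the second being Akap7. The cause of these moves was not tested.

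Differences changed sign in 37 cases, none called in either fit, with main LFC of up to 0.46 in size (Adcy7 at day 3). The LFC of Akap12 in F3 against F1 was -0.14 with the mural covariate and -0.16 to 0.18 with a sample left out. With total counts the LFC was -0.023 for Akap1, -0.044 for Akap9 and -0.019 for Akap11 at day 3, and -0.0084 for Adcy3 and -0.038 for Adcy6 at day 1. Akap9 also turned with any read (0.0035) and the mural covariate (0.026) at day 1, and at day 3 with the replicate block (-0.0015), without replicate d (-0.00050) and with the mural covariate (-0.015). With a sample left out, the LFC of Akap9 ranged from -0.087 to 0.041 at day 1, from -0.23 to 0.080 at day 2 and from -0.036 to 0.047 at day 3, and that of Akap13 from -0.097 to 0.047, from -0.18 to 0.18 and from -0.081 to 0.063. That of Adcy7 ranged from -0.49 to 0.48, from -0.64 to 0.34 and from -0.83 to 0.23, and turned only without AL j. At day 3 that of Akap1 ranged from -0.040 to 0.13 and that of Akap11 from -0.027 to 0.079, and at day 1 that of Adcy3 from -0.089 to 0.15 and that of Adcy6 from -0.038 to 0.082. The cause was not tested.

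Deviations of samples with the same letter correlated at -0.01 to 0.13 (median 0.02), and 1 of 18 pairs exceeded 0.1. Those of samples with different letters correlated at -0.17 to 0.17 (median -0.02), and 1 of 36 pairs exceeded 0.1. With 3 samples a group these values cannot show whether a letter stands for a shared experiment. With the letter as a replicate block the members called stayed at 0, 0 and 1 on the 3 days, Adcy4 at day 3 had an adjusted p of 0.0227 in edgeR's quasi-likelihood test, and 3 pathway genes were called at day 3 in place of 2, with Akap7 added (adjusted p = 0.0404). Depth limits Adcy7, Akap5 and Akap6, which had at most 33 reads in a sample.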
